A study of Mus musculus with 62 samples.

Results

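The giant filament proteins titin (Ttn) and nebulin (Neb), 4 proteins of the Z-disc (Actn2, Actn3, Ldb3, Myoz1) and 3 of the M-band (Myom1, Myom2, Myom3) were followed by their RNA in mouse gastrocnemius, a mixed calf muscle made mostly of fast fibres. These 9 genes were taken by symbol from the 47643 in the deposited table, and all 9 were expressed well enough to be tested among 12364 genes. Female mice of 2 months had been injected with melanoma cells that cause cachexia, the wasting of muscle and fat that accompanies some cancers (CAC), with melanoma cells that do not (NCAC), or with nothing but the mock injection (Con). Muscle was taken 2, 4, 6 or 8 weeks afterwards, with 5 libraries in each of the 12 groups except CAC at 8 weeks, which had 7, or 62 in all. The sample labels name the strain C57BL6/J and the series design names NCI Ath/nude mice, so the strain, and the immune cells the host still has, are not settled here. No group carries a transgene or drug in the labels, and nothing in the sources used here says how many tumour lines or clones stand behind CAC and NCAC.

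A sarcomere, the contractile unit of the muscle fibre, is bounded by Z-discs, where thin actin filaments of neighbouring units are joined by alpha-actinin, and is centred on the M-band, where myomesins tie the thick myosin filaments together. Titin reaches from the Z-disc to the M-band and acts as a spring and scaffold, and nebulin lies along the thin filament and helps to set its length. In muscle wasting, filament proteins are tagged for breakdown by ubiquitin ligases, so the RNA measured here is only one side of how much of each protein a fibre holds. In bulk muscle, fewer fibres of a kind and less RNA per fibre cannot be told apart.

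Fast fibre genes were abundant in this muscle: the summed level of 8 fast fibre markers lay between 96455.4 and 106974.5 TPM in Con and between 84111.4 and 111828.1 TPM in CAC at 8 weeks, and 8 slow fibre markers were present in every library. TPM is a share of all transcripts corrected for length, so levels of different genes can be set side by side, but only roughly. All exons of a gene, merged over its splice forms, can be much longer than its longest transcript. For Myom1 these lengths were 10459 and 5648 bases, and for Actn3 2901 and 2887. The length the authors used is not given, and the order of genes at close levels can depend on it. The estimated depth was 39600000 to 48400000 reads per library. Melanocyte markers were near 0 in every library, and Tyr, the enzyme that makes pigment, was at 0 in 57 of the 62. Macrophage markers were higher in CAC: their summed level ran from 148 to 520.0 TPM in CAC at 8 weeks against 44.3 to 169 TPM in Con. Of the 7 markers, 6 were called higher there, beside 65.3% of all genes tested (Ptprc was too low to test). On values rescaled as described below, 4 were called higher, beside 22.9% of all genes. Genes encoded in mitochondrial DNA held a median share of 34.2% in Con and 23.3% in CAC at 8 weeks, so that the room left for all other genes differed between groups.

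By the median of the 20 Con libraries the order of levels was Actn3, Myoz1, Actn2, Ldb3, Myom1, Neb, Myom2, Ttn and Myom3. Actn3, the alpha-actinin of fast fibres, had a Con median of 5690.2 TPM, and Myoz1, a small partner of alpha-actinin in fast fibres, 3235 TPM. At the other end stood Ttn with 184 TPM and Myom3, the least abundant myomesin, with 26.9 TPM. Of the steps, 3 were clear in every library: Actn3 above Myoz1, Myoz1 above Actn2 and Ttn above Myom3 in 62 of 62. The order of Actn2 and Ldb3 (Con median 582 TPM) was not clear, with Actn2 higher in 11 of 20 Con libraries, and Myom1 (475 TPM) was above Neb (458 TPM) in 14 of 20. Because of its length, Ttn still held 320005 to 657405 estimated reads per library, whereas Myom3 held 1982 to 12551. Together the 9 genes took 1.18% ± 0.0744 (SD, n = 5) of TPM in Con and 1.49% ± 0.201 (n = 7) in CAC at 8 weeks.

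**Figure D1:**
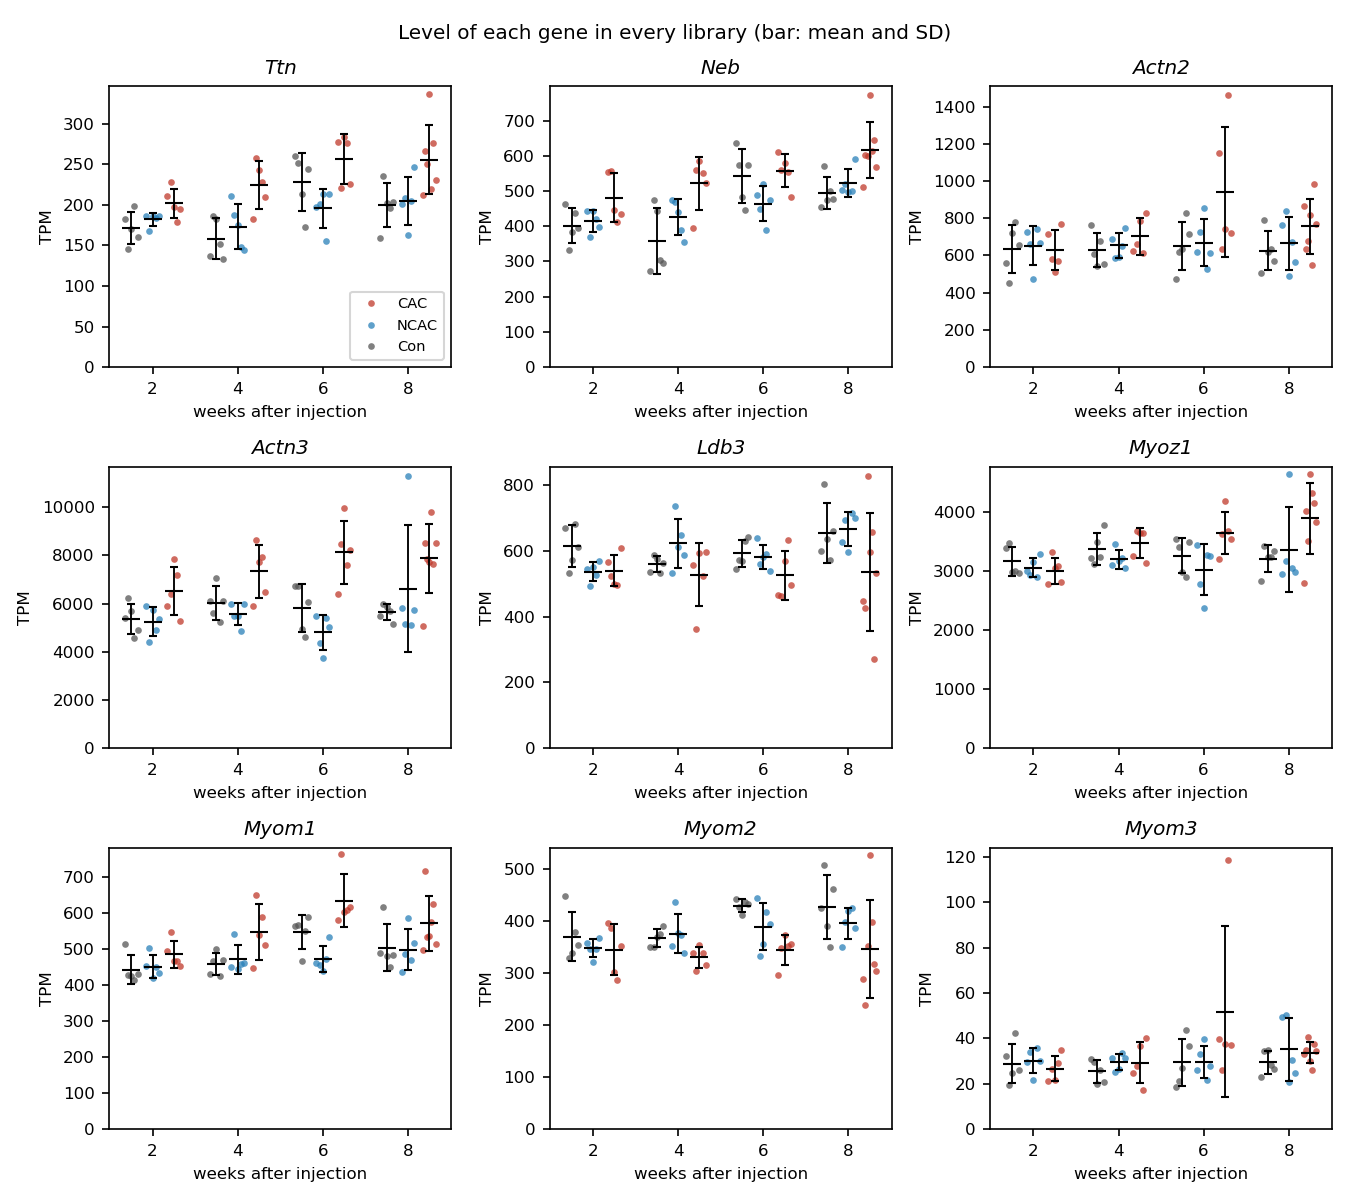
Level in TPM of each of the 9 genes (vertical axes, from 0) against weeks after injection, one point per library, with CAC red, NCAC blue and Con grey; the black bar is the group mean with its SD. The mean of Ttn and of Neb is higher in CAC than in NCAC and Con at every week, Ldb3 and Myom2 have their lowest points in CAC at 8 weeks (270.2 and 238 TPM), and 1 library at 119 TPM stands apart in Myom3.

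On the GRCm38 assembly with GENCODE vM21 gene models, Ttn lies at chr2:76703980-76982547 on the minus strand and Neb at chr2:52136647-52378474, also minus, with 116825 and 26582 bases of merged exons. Of the Z-disc genes, Actn2 is at chr13:12269426-12340760, Actn3 at chr19:4861216-4877909, Ldb3 at chr14:34526603-34588682 and Myoz1 at chr14:20649107-20656540, all on the minus strand. The myomesin genes are on the plus strand, Myom1 at chr17:71002633-71126856, Myom2 at chr8:15057653-15133541 and Myom3 at chr4:135759715-135815564. The table gives 1 value per symbol, so the many splice forms of Ttn, Neb and Ldb3 are summed and their balance was not measured.

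RefSeq (GRCm38) start sites were matched for 5 of the 9 genes, and the upstream windows of 4 are shown, from 250 to 31 bases before the start, because their genes carry the patterns described further on: Ttn as the giant that moved with Neb, Actn2 and Myom3 as the pair that moved with slow fibre markers, and Ldb3 as a gene that fell. They are chr2:76982578-76982797, chr13:12340763-12340982 and chr14:34588712-34588931, read on the minus strand, and chr4:135759465-135759684 on the plus strand. Capitals mark E-boxes (CANNTG, where N is any base) and, as the first capital run of Ttn, a MEF2 box, read on both strands. MyoD-family factors bind E-boxes, but the inner bases of a match, which differ here, were not used to sort matches by factor.
Ttn: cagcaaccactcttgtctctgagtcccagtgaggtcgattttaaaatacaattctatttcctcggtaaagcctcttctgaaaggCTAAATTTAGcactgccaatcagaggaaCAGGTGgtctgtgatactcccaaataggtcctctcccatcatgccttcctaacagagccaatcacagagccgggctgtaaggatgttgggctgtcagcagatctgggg
Actn2: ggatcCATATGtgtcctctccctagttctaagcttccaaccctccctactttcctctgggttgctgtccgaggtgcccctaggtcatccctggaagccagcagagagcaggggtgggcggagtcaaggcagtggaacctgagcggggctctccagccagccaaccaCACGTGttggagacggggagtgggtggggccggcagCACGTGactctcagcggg
Myom3: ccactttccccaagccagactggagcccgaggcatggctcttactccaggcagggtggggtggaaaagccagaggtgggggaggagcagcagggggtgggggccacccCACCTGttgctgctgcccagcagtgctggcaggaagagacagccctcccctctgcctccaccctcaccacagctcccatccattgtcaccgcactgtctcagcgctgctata
Ldb3: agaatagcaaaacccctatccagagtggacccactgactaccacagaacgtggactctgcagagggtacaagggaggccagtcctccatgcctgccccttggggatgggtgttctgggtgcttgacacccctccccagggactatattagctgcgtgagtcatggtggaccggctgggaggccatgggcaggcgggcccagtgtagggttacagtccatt
Actn2 held 3 E-boxes, Ttn and Myom3 held 1 each, and Ldb3 held none; of 32524 windows of this length, 62.2% held at least 1 E-box and 2.57% a MEF2 box. RefSeq gives Ldb3 another start inside the gene, whose overlapping window, chr14:34588638-34588857, held no E-box and 1 CArG box, the element bound by serum response factor, which 1.3% of windows held. The window of Myom1, whose RefSeq start lies 16924 bases inside the gene, held 3 E-boxes and 1 CArG box and is not shown. A match to letters is a description of the sequence and no evidence of a bound factor.

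CAC was set against Con to ask how these genes behaved as cachexia progressed. A gene was called when its adjusted p (limma, Benjamini-Hochberg over the 12364 genes) was under 0.05, on the log2(TPM + 1) scale. At 2 weeks 0 of the 9 genes were called, 1 at an unadjusted p under 0.05, beside 0.283% of all genes tested. At 4 weeks 3 of 9 were called, all higher (Ttn, Neb, Myom1), beside 25.3% of all genes (23% higher and 2.38% lower). At 6 weeks 5 of 9 were called, with Actn2, Actn3, Myom1 and Myom3 higher and Myom2 lower, beside 57.2% (51.8% higher and 5.41% lower). At 8 weeks 6 of 9 were called, with Ttn, Neb, Actn3 and Myoz1 higher and Ldb3 and Myom2 lower, beside 70.8% (65.3% higher and 5.55% lower). Against this background 4 of 9 called higher at 6 and 8 weeks was no larger a share than that of all genes. The median difference of the 9 genes was 0.26 at 8 weeks against 0.36 for all genes tested, both on the log2 scale.

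TPM are shares of a fixed total, and the median of all genes itself rose in CAC. Rescaling each library to a common median ratio lowered the all-gene median by 0.08, 0.16, 0.27 and 0.34 at 2, 4, 6 and 8 weeks. After rescaling, the 9 genes gave 0, 1, 2 and 3 calls: Neb higher at 4 weeks, Ldb3 and Myom2 lower at 6 weeks, and Ldb3, Myom1 and Myom2 lower at 8 weeks. The background on that scale was 0.291%, 15.2%, 31.7% and 45.2% of all genes, with 7.43%, 14.4% and 22.9% higher and 7.8%, 17.2% and 22.3% lower at 4, 6 and 8 weeks. On the rescaled values the median of the 9 genes was -0.15 at 8 weeks. The lower levels of Ldb3 and Myom2 in CAC at 8 weeks were called on either scale, and none of the higher levels at 6 or 8 weeks was. Without the mitochondrial genes the differences of Ldb3 and Myom2 were called as well, at -0.54 and -0.52.

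**Figure D2:**
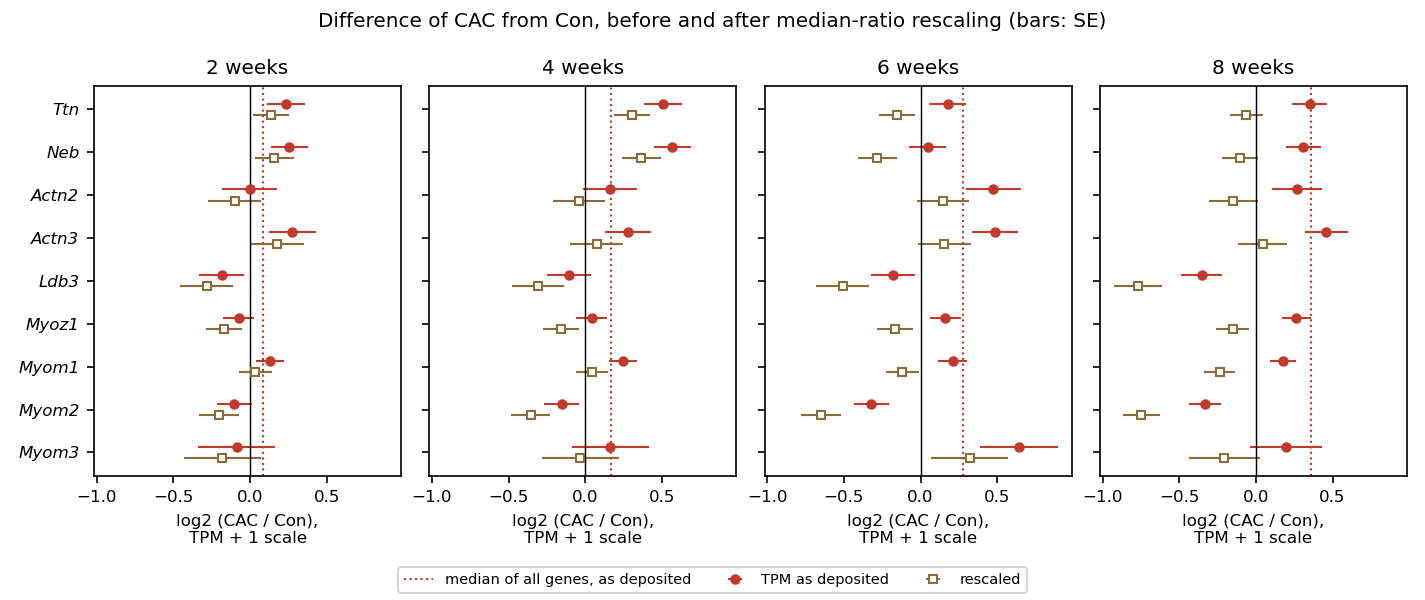
Difference of CAC from Con (horizontal axes, log2 of TPM + 1) for the 9 genes at each week, with bars of 1 SE. Filled circles are TPM as deposited, open squares the same after median-ratio rescaling, and the dotted line is the median of all tested genes as deposited; at 8 weeks Ldb3 and Myom2 lie left of 0 in both and the other genes lie near 0 or left of it after rescaling.

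Among the giants, Ttn rose in CAC at 4 weeks, from 158 ± 25.1 TPM (SD, n = 5) in Con to 224 ± 29.2 TPM (n = 5). The Con libraries had 137, 186, 183, 152 and 133 TPM and the CAC libraries 183, 258, 243, 228 and 210.0 TPM. The lowest CAC library thus lay among the higher Con libraries, and the other 4 lay above all of them. The difference was 0.51 ± 0.12 (SE; adjusted p = 0.00291). It was 0.30 after rescaling (adjusted p = 0.0684), which ends the call. Neb moved the same way at 4 weeks. Its Con libraries had 272, 474, 443, 304 and 297 TPM and its CAC libraries 394, 559, 586, 549.8 and 522 TPM. All but 1 CAC library lay above every Con library. The difference was 0.57 ± 0.12 (adjusted p = 0.000853), and 0.37 after rescaling (adjusted p = 0.0393). Fitted on CAC and Con of that week alone, the Neb call was lost (adjusted p = 0.0556).

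At 6 weeks neither giant was called in CAC against Con. Ttn averaged 228 ± 36 TPM in Con and 257 ± 30.9 TPM in CAC, a log2 difference of 0.18 (95% interval -0.07 to 0.42; -0.15 after rescaling). Neb averaged 543 ± 76.9 TPM in Con and 558 ± 46.4 TPM in CAC (0.05, interval -0.20 to 0.29; -0.28 after rescaling). At 8 weeks both were called again: Ttn ran from 212 to 336 TPM with a median of 249.7 in the 7 CAC libraries, and its Con libraries had 159, 236, 203, 196 and 204 TPM. The ranges overlapped through 1 Con library at 236 TPM. The difference was 0.35 ± 0.11 (adjusted p = 0.00545). Neb ran from 511 to 773 TPM with a median of 604 in CAC against 454, 571, 474, 499 and 477 TPM in Con, a difference of 0.31 ± 0.11 (adjusted p = 0.0124). No single library, left out, ended these 4 calls of the giants. Rescaling turned both 8-week values below 0, to -0.06 for Ttn and -0.11 for Neb, and leaving out the mitochondrial genes gave 0.16 (adjusted p = 0.217) and 0.12 (adjusted p = 0.355).

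The level of both giants in Con itself moved over the weeks. Neb changed with time in Con by the F test over weeks (adjusted p = 0.0146), beside 0.59% of all genes, and Ttn missed the threshold (adjusted p = 0.0552). Neb means in Con were 402 ± 50.4, 358 ± 93.5, 543 ± 76.9 and 495 ± 45.3 TPM at 2, 4, 6 and 8 weeks. The lowest Con mean was thus that of 4 weeks, the week of the largest difference from CAC. The call on Con rested on 4 libraries in turn: without replicate 1, 4 or 5 at 4 weeks or replicate 1 at 6 weeks the adjusted p was 0.169, 0.0715, 0.0891 and 0.0589. Whether the CAC difference itself changed over weeks was tested too, and 0 of 9 genes were called, 1 of them (Neb) at an unadjusted p under 0.05, beside 12.1% of all genes.

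The giants moved together and with long transcripts in general. Over the 62 libraries the correlation of Ttn and Neb was 0.92, and 0.85 after group means were removed. For each library a length index was taken as the median log2 deviation of 1095 tested genes with at least 10000 bases of exons minus that of 3656 genes with 2000 to 4000; this measure was chosen after the companions of Ttn had been seen. The index correlated with Ttn at 0.72 and with Neb at 0.70, and with Ldb3 at -0.38. Its group median was 0.0499 in CAC and -0.077 in Con at 4 weeks, and 0.034 and -0.0107 at 8 weeks. At 6 weeks, where the giants were not called, it was 0.055 and 0.0462. At 2 weeks it was 0.0587 and -0.0502, a wider gap than at 8 weeks, while Ttn and Neb differed by 0.24 and 0.26 and were not called. Its part in the values of the giants was not tested.

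At the Z-disc, Actn2, the alpha-actinin of all fibre types, and Actn3, that of fast fibres, were both called higher in CAC at 6 weeks. Actn2 had 1148, 636, 739.5, 1459.9 and 719 TPM in CAC and 474, 616, 634, 826 and 712 TPM in Con. Only 2 CAC libraries, replicates 1 and 4, lay above the Con range. The difference was 0.48 ± 0.18 (adjusted p = 0.0202). It was 0.30 with CAC replicate 4 left out (adjusted p = 0.146), and the call also ended with replicate 1 of CAC (0.0834) or of Con (0.0839) left out. At 8 weeks Actn2 differed by 0.27 with an interval of -0.06 to 0.60, and by -0.15 after rescaling.

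Actn3 had 6394, 8469, 9982, 7607 and 8223 TPM in CAC at 6 weeks and 6722, 6749, 4951, 4609 and 6073 TPM in Con. All CAC libraries but replicate 1 were above the Con range, and the difference was 0.49 ± 0.15 (adjusted p = 0.00634). At 8 weeks Actn3 ran from 5056 to 9799 TPM with a median of 7832 in CAC, against 5502, 5965, 5872, 5704 and 5146 TPM in Con. All but the lowest CAC library lay above Con there, with a difference of 0.46 ± 0.14 (adjusted p = 0.00348). Neither call of Actn3 was lost with any 1 library left out. Both were lost after rescaling, at 0.16 (adjusted p = 0.497) and 0.04 (adjusted p = 0.843), and without the mitochondrial genes (adjusted p = 0.0547 and 0.0616).

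Myoz1, which also binds the phosphatase calcineurin, rose in CAC at 8 weeks. It ran from 2801 to 4643 TPM with a median of 4007 in CAC and had 2830.4, 3428, 3230.1, 3232 and 3330.2 TPM in Con. The lowest CAC library was below all of Con and the rest were above it. The difference was 0.26 ± 0.09 (adjusted p = 0.0108). It turned to -0.15 after rescaling (adjusted p = 0.25), and fitted on CAC and Con of 8 weeks alone the call was lost (adjusted p = 0.0654).

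Ldb3, the PDZ and LIM protein also known as ZASP or Cypher that holds alpha-actinin in the Z-disc, went the other way. At 8 weeks its 7 CAC libraries ran from 270.2 to 827 TPM with a median of 533, and its Con libraries had 601, 804, 636, 572 and 660.5 TPM. Of the CAC libraries, 4 lay below all of Con, while 1, at 827 TPM, was the highest of either group. Mean levels were 655 ± 90.3 TPM in Con and 536 ± 179.7 TPM in CAC, a difference of -0.35 ± 0.13 (adjusted p = 0.0171). After rescaling it was -0.77 (adjusted p = 0.000102). The libraries at both ends, CAC replicates 6 and 3, were also the farthest from their group mean over all genes (root mean square 0.483 and 0.448 in log2, others 0.236 to 0.394). The call rested in part on CAC replicate 6, the library at 270.2 TPM: without it the difference was -0.20 (adjusted p = 0.107), without CAC replicate 3 it was -0.47 (adjusted p = 0.000828), and without Con replicate 2 it was -0.28 (adjusted p = 0.0766). Fitted on CAC and Con of 8 weeks alone the call was lost as well (adjusted p = 0.174). At 6 weeks the difference was -0.18 (adjusted p = 0.283), called only on rescaled values (-0.51, adjusted p = 0.0191). The CAC means of Ldb3 were 538.8, 527, 525.5 and 536.3 TPM at 2, 4, 6 and 8 weeks. The Con means were 613.7, 559.2, 592 and 654.6 TPM. The CAC mean thus stayed at a like level, and the Con mean was highest at 8 weeks.

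At the M-band, Myom2, the M-protein of fast fibres, was lower in CAC than in Con at 6 and 8 weeks. Its CAC means were 344.1, 329.4, 344.2 and 345.6 TPM at 2, 4, 6 and 8 weeks. Its Con means were 369.1, 366.4, 429.1 and 426.4 TPM. The CAC mean thus stayed at a like level, while the Con mean was higher at 6 and 8 weeks than before. At 6 weeks Myom2 had 295, 347, 373, 351 and 354 TPM in CAC and 442, 426, 410.4, 435 and 432 TPM in Con, so that the groups did not overlap. Of all genes tested, 30.9% did not overlap in that comparison, and of the 9 genes only Myom2. In CAC against Con at 2, 4 and 8 weeks 0 of the 9 had groups that did not overlap, beside 5.55%, 16.8% and 27% of all genes. The difference was -0.32 ± 0.11 (adjusted p = 0.0153), and without CAC replicate 1 it was -0.27 (adjusted p = 0.0631). At 8 weeks Myom2 ran from 238 to 525 TPM with a median of 316 in CAC and had 425, 507, 390.3, 349.6 and 460.5 TPM in Con. The CAC library at 525 TPM, replicate 4, was above all of Con, and 4 of the 7 were below all of it. The difference was -0.33 ± 0.11 (adjusted p = 0.00493), and no library left out ended this call. After rescaling the differences at 6 and 8 weeks were -0.65 (adjusted p = 0.000141) and -0.75 (adjusted p = 1.75e-06). Of the alternatives with all libraries, only the fit of CAC and Con at 8 weeks alone ended a call of Myom2 in these comparisons (adjusted p = 0.0998).

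Myom1, the myomesin of all striated muscle, had small positive differences. At 4 weeks its CAC libraries had 448, 651, 539.9, 589 and 511 TPM and its Con libraries 431, 467, 502, 425 and 469 TPM. Of these, 4 CAC libraries lay above all of Con, with a difference of 0.25 ± 0.09 (adjusted p = 0.042). At 6 weeks the difference was 0.21 (adjusted p = 0.0482) and at 8 weeks 0.18 (adjusted p = 0.0575). These values sat at the threshold: without CAC replicate 2 they were 0.18 at 4 weeks (adjusted p = 0.235) and 0.14 at 6 weeks (0.198). Leaving out CAC replicate 3 or 4 or Con replicate 1, 2, 4 or 5 also ended the call at 4 weeks, and CAC replicate 4 or 5 or Con replicate 1, 2, 3 or 4 that at 6 weeks. After rescaling Myom1 was -0.24 at 8 weeks (adjusted p = 0.0447), a call in the other direction.

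Myom3 was called higher at 6 weeks through 1 library. Its libraries had 39.7, 25.9, 37.4, 119 and 37.1 TPM in CAC and 18.7, 21.3, 27.1, 43.5 and 36.6 TPM in Con. CAC replicate 4 stood far above the others, and the remaining 4 lay within the Con range. The difference was 0.64 ± 0.25 (adjusted p = 0.0272). Without CAC replicate 4 it was 0.29 (adjusted p = 0.28), and without Con replicate 1 or 2 the adjusted p was 0.0981 and 0.0808. The same library had the highest Actn2 and a summed slow fibre level of 4430.4 TPM, where the median of its group was 2112.2 TPM.

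Ratios of 2 genes within a library do not move with the scaling of TPM. A set of 5 ratios was compared in 12 comparisons by exact two-sided permutation tests, and 0 of the 60 were called after adjustment; 11 had an unadjusted p under 0.05. With 5 libraries against 5 the smallest p these tests allow is 0.00794, and with 7 against 5 it is 0.00126, so that no single ratio could pass the adjustment over 60 tests on its own. Myom2 over Myom1 in log2 was -0.88 ± 0.175 (SD, n = 5) in CAC and -0.35 ± 0.101 (n = 5) in Con at 6 weeks. The CAC libraries had -0.97, -1.14, -0.70, -0.79 and -0.80 and the Con libraries -0.35, -0.41, -0.19, -0.34 and -0.45, with no overlap. The difference of -0.53 had the smallest p possible (exact p = 0.00794, adjusted p = 0.159). At 2, 4 and 8 weeks the differences were -0.24, -0.40 and -0.51 (exact p = 0.0397, 0.0238 and 0.0354; adjusted p = 0.216, 0.179 and 0.212). The mean ratio was thus lower in CAC than in Con at each week. At 8 weeks it was -0.755 ± 0.473 (SD, n = 7) in CAC, where replicate 4, at -0.03, lay above every Con library. Against NCAC the differences were -0.13, -0.39, -0.59 and -0.42 at 2, 4, 6 and 8 weeks (exact p = 0.198, 0.0159, 0.00794 and 0.077). Limma on the same ratios, with 1 spread for all libraries, called 4 against Con and 4 against NCAC, among them Myom2 over Myom1 at 4, 6 and 8 weeks in both (adjusted p = 0.0371, 0.00485 and 0.00437 against Con).

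Myoz1 over Ldb3, both partners of alpha-actinin, was 2.92 ± 0.571 (n = 7) in CAC and 2.30 ± 0.15 (n = 5) in Con at 8 weeks, a difference of 0.62 (exact p = 0.0354, adjusted p = 0.212). Limma on this ratio called it (adjusted p = 0.00664), and lost the call with a replicate block (0.43, adjusted p = 0.0576). At 6 weeks Myoz1 over Ldb3 differed from Con by 0.34 (exact p = 0.0238, adjusted p = 0.179). Against NCAC its differences were 0.37, 0.43 and 0.60 at 4, 6 and 8 weeks (exact p = 0.0159, 0.0159 and 0.0631). In NCAC against Con at 4 weeks it went the other way, by -0.22 (exact p = 0.0159, adjusted p = 0.159). For Actn3 over Actn2, Myom3 over Myom1 and Neb over Ttn no comparison had an unadjusted exact p under 0.05. Neb over Ttn differed between CAC and Con by -0.04 at 8 weeks.

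**Figure D3:**
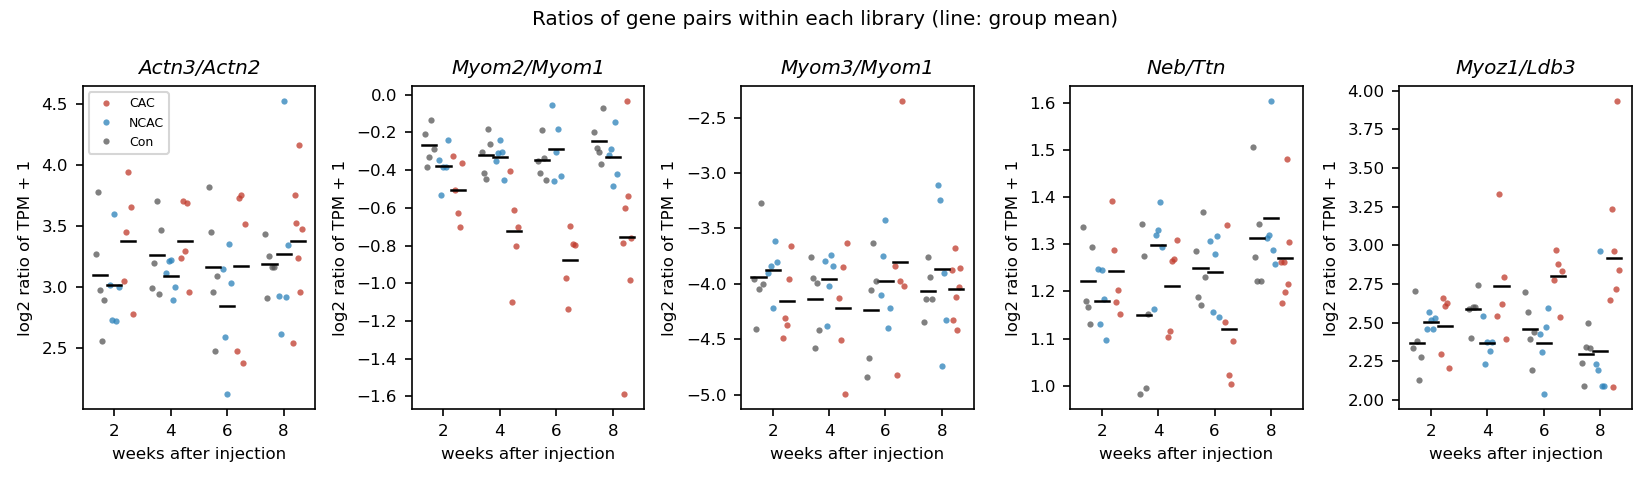
Log2 ratio of 2 genes within each library (vertical axes; TPM + 1) against weeks after injection, with CAC red, NCAC blue, Con grey and black lines for group means. Myom2/Myom1 has a lower mean in CAC at each week, with no overlap at 6 weeks. At 8 weeks CAC replicate 4, at -0.03, lies above the Con and NCAC libraries. Myoz1/Ldb3 lies higher in most CAC libraries at 6 and 8 weeks, with means of 2.92 in CAC and 2.30 in Con at 8 weeks.

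CAC was set against NCAC to ask what went with cachexia rather than with a tumour as such. These groups also differ in the melanoma cells injected, so cachexia and any other trait of those cells cannot be told apart. At 2 weeks 0 of 9 genes were called, 1 at an unadjusted p under 0.05, beside 1.17% of all genes (0.453% after rescaling, also with 0 of 9). At 4 weeks only Ttn was called, higher in CAC (0.38, adjusted p = 0.0307), beside 19.7% (18.1% higher and 1.59% lower). That call was lost without CAC replicate 2 or 3 or NCAC replicate 3, 4 or 5 (adjusted p from 0.0537 to 0.182). At 6 weeks 7 of 9 were called, all higher in CAC (Ttn, Neb, Actn2, Actn3, Myoz1, Myom1, Myom3), beside 68.7% of all genes, of which 64.1% were higher and 4.64% lower. For Ttn, Actn3 and Myom1 the groups did not overlap, beside 41.8% of all genes. At 2, 4 and 8 weeks this held for 0 of 9, beside 9.58%, 14.3% and 25%. Actn3 had the largest of these differences, with 5483, 4381, 3739, 5402 and 5016 TPM in NCAC against the CAC values above, or 0.76 ± 0.15 (adjusted p = 3.28e-05). After rescaling 0 of the 7 remained called, and Ldb3 (-0.60) and Myom2 (-0.62) were called lower, beside 41.5% of all genes (19.7% higher and 21.7% lower). Myom2 was called lower on that scale at 4 weeks too (-0.39, adjusted p = 0.0469), beside 8.09% (2.97% higher and 5.12% lower). The calls of Neb, Actn2 and Myom3 each ended with any of at least 4 single libraries left out, CAC replicate 4 among them for all 3. The call of Myoz1 ended without CAC replicate 3 (adjusted p = 0.0534) or NCAC replicate 3 (0.083).

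At 8 weeks 5 of 9 genes differed between CAC and NCAC, beside 72.3% of all genes (67.5% higher and 4.8% lower): Ttn (0.32), Myoz1 (0.22) and Myom1 (0.19) were higher and Ldb3 (-0.38) and Myom2 (-0.23) lower. Ldb3 in NCAC had 628, 692, 596, 716 and 699 TPM, a narrower range that lay inside the 270.2 to 827 TPM of CAC. The median was 692.5 TPM in NCAC and 532.7 TPM in CAC. The adjusted p of Ldb3 was 0.00929, and 0.0606 without CAC replicate 6. Myom2 in NCAC had 349, 397, 419, 424 and 385 TPM, and its adjusted p of 0.0476 was lost without any 1 of 8 libraries (0.0578 to 0.187). Myoz1 (adjusted p = 0.0336) and Myom1 (0.0395) were likewise lost without any 1 of 8 and of 6 libraries, up to an adjusted p of 0.11 and 0.146. Ttn was lost without NCAC replicate 3 (0.0695). On rescaled values Ldb3, Myom1 (-0.24) and Myom2 (-0.67) were called lower and no member higher, beside 45% of all genes (22.6% higher and 22.4% lower). That NCAC library stood apart in the fast fibre pair, with 11293 TPM of Actn3 where the other 4 had 5113 to 5814. Without it Actn3 differed by 0.51 (adjusted p = 0.00055) in place of 0.30 (0.053).

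NCAC and Con were compared to ask what a tumour without cachexia did. No gene of the 12364 was called at any week, 0% of the table, with 471, 224, 909 and 139 genes at an unadjusted p under 0.05. Of the 9 genes, 0, 1, 1 and 0 had such a p: Neb at 4 weeks (0.28, interval 0.04 to 0.52) and Myom1 at 6 weeks (-0.21, interval -0.40 to -0.03). For Ttn, Ldb3 and Myom2 at 8 weeks the intervals were -0.21 to 0.28, -0.26 to 0.32 and -0.33 to 0.13. The values of CAC against Con, which share these Con libraries, were 0.35, -0.35 and -0.33. Each NCAC interval still holds differences in either direction, and that of Myom2 reaches -0.33, about the value of CAC. NCAC and Con are thus not shown to be alike.

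Several of the 9 genes moved together across libraries, which share TPM totals and a narrow range of depth. Actn2 and Myom3 correlated at 0.82 over 62 libraries (0.80 within groups) and Actn3 and Myoz1 at 0.81 (0.79), while Actn2 and Actn3 were opposed within groups (-0.56). Ldb3 and Myom2 correlated at 0.60 (0.50). Myom1 crossed these pairs, at 0.66 with Neb, 0.65 with Actn3, 0.63 with Ttn and 0.61 with Myoz1, and within groups at 0.38, 0.44, 0.22 and 0.49. The summed slow fibre markers correlated with Myom3 at 0.74 and with Actn2 at 0.55, and the fast fibre sum with Actn3 at 0.46 and, within groups, at 0.81. The slow fibre sum was not alone in this. A sum of cardiac markers correlated with Myom3 at 0.72 and with Actn2 at 0.55, and the endothelial sum at 0.38 and 0.52. The fast fibre sum was opposed to Myom3 (-0.535) and Actn2 (-0.61). Of the 8 slow fibre markers, 0 were called in CAC against Con at 6 weeks, beside 57.2% of all genes. At 8 weeks 4 were called, all higher, beside 65.3% of all genes higher and 5.55% lower. After rescaling 0 slow fibre markers were higher and 1 lower at 8 weeks, beside 22.9% and 22.3% of all genes. Of the 8 fast fibre markers, 2 were higher and 2 lower at 8 weeks, and 0 and 5 after rescaling, beside the same shares. The part of fibre makeup in the values of these genes was not tested.

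The genes most like each member, by the correlation of log2(TPM + 1) over 62 libraries among all other tested genes, differed from gene to gene. For Ttn they were Huwe1 (0.90), a large ubiquitin ligase, 4932438A13Rik (0.89) and Atm (0.89), a kinase of the DNA damage response, with 23507, 32279 and 10338 bases of exons, where the median of tested genes was 4274. For Neb they were Wdr7 (0.90), Alg10b (0.89) and Atp7a (0.88), a copper transporter, of 10188, 6644 and 8734 bases. The giants thus had longer-than-median companions that are not sarcomere genes. Actn3 went with Mybpc2 (0.93), the fast form of myosin binding protein C, Ckm (0.85), the muscle creatine kinase, and Atp2a1 (0.85), the calcium pump of fast fibres and one of the listed fast fibre markers. Myom3 went with Csrp3 (0.85), the muscle LIM protein, Fhl1 (0.85) and Dnaja4 (0.83), a co-chaperone, and Actn2 with Smtnl1 (0.83), Arpp21 (0.79) and Fhl1 (0.78). Ldb3 went with Hspb3 (0.85), a small heat shock protein, Smyd1 (0.84), a muscle methyltransferase needed for myofibril assembly, and Timm22 (0.84), part of a mitochondrial import channel. For Myoz1 they were Smyd2 (0.79), Gapdh (0.78), an enzyme of glycolysis, and Anapc5 (0.78), and for Myom1 they included Cmya5 (0.82) and Cacfd1 (0.80). Myom2 had no close companion, its highest values being Fahd1 (0.62), Tmem109 (0.61) and Tmem126a (0.60).

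**Figure D4:**
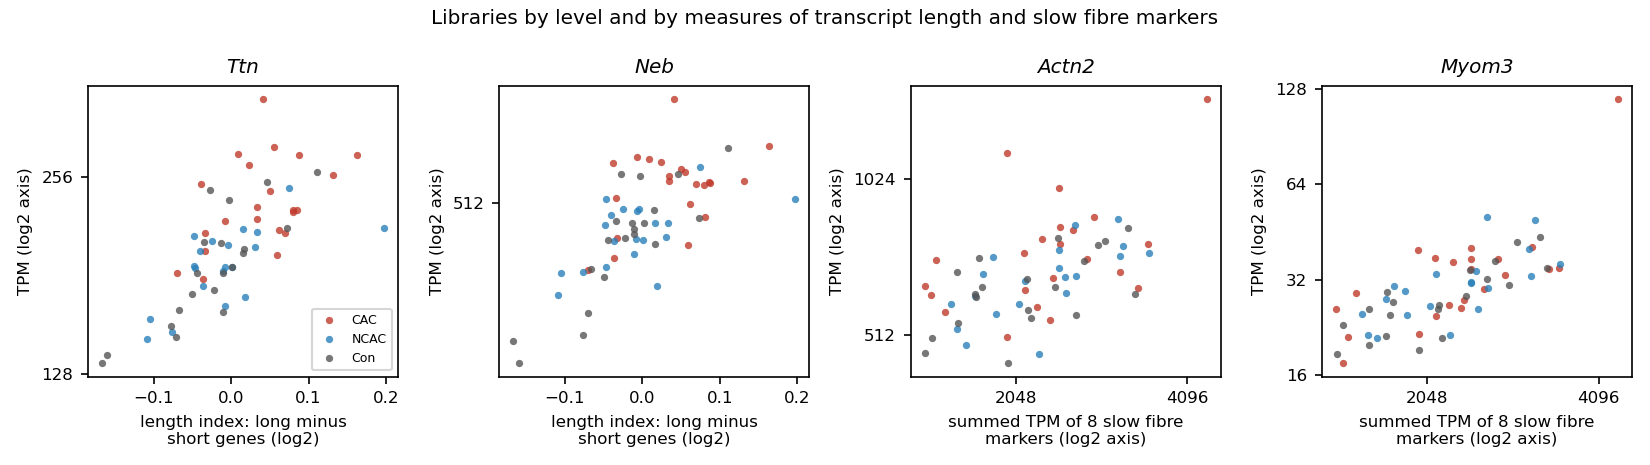
Level in TPM (vertical axes, log2) of Ttn and Neb against the length index of each library, and of Actn2 and Myom3 against the summed TPM of 8 slow fibre markers (log2 axis), one point per library, with CAC red, NCAC blue and Con grey. The points rise from left to right in all 4 panels, and the 1 CAC library of 6 weeks at 4430.4 TPM of slow markers is the highest in the Actn2 and Myom3 panels.

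Around the 9 genes, 64 other genes of the Z-disc, M-band, thin filament ends and filament upkeep were listed, and 63 were tested (Nebl, a small relative of nebulin, was too low). In CAC against Con 0, 15, 33 and 35 of the 63 were called higher and 0, 1, 5 and 7 lower at 2, 4, 6 and 8 weeks. After rescaling 8 were higher and 16 lower at 8 weeks. Of all genes 0.283% were called at 2 weeks, in either direction. At 4, 6 and 8 weeks 23%, 51.8% and 65.3% of all genes were higher and 2.38%, 5.41% and 5.55% lower. The median difference of the 63 at 8 weeks was 0.34, beside 0.36 for all genes. By list, 16 of 30 Z-disc partners were higher and 3 lower at 8 weeks, 5 of 11 M-band and titin-linked genes higher and 1 lower, 5 of 10 genes of thin filament length and ends higher and 3 lower, and 9 of 12 genes of desmin and filament maintenance higher and 0 lower, where 65.3% of all genes were higher and 5.55% lower. After rescaling the same lists gave 5 higher and 9 lower, 0 and 2, 0 and 4, and 3 and 1, beside 22.9% and 22.3% of all genes.

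The lowest p among them belonged to Des, desmin, the intermediate filament that links neighbouring Z-discs. It rose from 1440.0 ± 169 TPM (n = 5) in Con to 3726 ± 1072 TPM (n = 7) in CAC at 8 weeks, a difference of 1.32 ± 0.16 (adjusted p = 3.02e-09; 0.91 after rescaling). Actn1 and Actn4, the alpha-actinins of non-muscle cells, rose by 1.43 (from 4.31 to 14.2 TPM) and 0.71 (from 19.3 to 32.8 TPM). Summed markers of several non-muscle cells had higher medians in the same group. At 8 weeks the summed level of smooth muscle markers was 145 to 331 TPM in CAC and 95.8 to 132 TPM in Con, and that of endothelial markers 92.5 to 153 and 55.2 to 84.0 TPM. Neither overlapped, where 27% of all genes did not. Of the 5 smooth muscle markers 3 were called higher and 1 lower, and 1 and 1 after rescaling. Of the 3 endothelial markers 2 were higher and 1 lower, and 1 and 1 after rescaling. Of all genes 65.3% were higher and 5.55% lower, or 22.9% and 22.3% after rescaling. The macrophage sums given above overlapped, as did those of adipocyte markers (medians 885 and 417 TPM) and fibroblast markers (666 and 336 TPM). The part of these cells in Actn1 and Actn4 was not tested. Flnc (1.12), a filamin that gathers at damaged Z-discs, and Hspb1 (0.93), a small heat shock protein, were also called on either scale. Unc45b (0.49), a myosin chaperone, Dnajb6 (0.55), Cmya5 (0.55), Nbr1 (0.51), an autophagy receptor that binds titin, Capza1 (0.55), which caps actin filaments, and Myot (0.58), the Z-disc protein myotilin, rose on TPM as deposited only.

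Among the closest relatives, the calsarcins Myoz2 and Myoz3 went in opposite directions at 8 weeks. Myoz2, the slow and cardiac form, rose from 87.3 ± 17.2 to 170.1 ± 49.2 TPM (0.93, adjusted p = 0.000122; 0.51 and 0.0227 after rescaling). Myoz3, a fast fibre form, fell from 156 ± 21.3 to 86.6 ± 58.7 TPM (-1.22, adjusted p = 0.00155; -1.63 and 0.000403 after rescaling), and at 6 weeks from 149 to 55.4 TPM with no overlap. Pdlim7, a PDZ and LIM protein like Ldb3, fell from 135 ± 10.3 to 96.6 ± 18.4 TPM with no overlap (-0.49, adjusted p = 3.38e-05; -0.90 and 6.4e-07 after rescaling). Tcap, the cap on the Z-disc end of titin, differed by 0.32 (adjusted p = 0.0606), Capn3, a protease bound to titin, by 0.11 (0.357), and Obsl1 by 0.07 (0.674), none of them called.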

How the data were processed

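RNA of 62 gastrocnemius libraries was measured by poly(A)-selected stranded sequencing, per the labels' protocols. The deposited values are TPM, 1 column per library, made by the authors from reads on mouse build mm10 per the submitters' processing notes; which aligner, counter and gene models they used is not given in the sources used here. Every column sums to the same total, so a large change in some genes shifts all others. Groups came from each library's description; a tag naming cachectic cells for all libraries was not used. The labels call the libraries biological replicates, and p-values measure the spread between them.

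Differences were fitted by limma 3.58.1 (R 4.3.3) to log2(TPM + 1) (12 group means, variance trend, two-sided, threshold 0.05), over the 12364 genes with at least 1 TPM in 5 libraries. Figures and tables used Python 3.11.15. The method was tested on simulated data. Depth was estimated from the TPM steps and GENCODE exon lengths, with 78.0% to 79.6% of values of 1 to 20 reads within 0.02 of a whole number. The SE is that of limma and intervals are 95%.

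The members and gene lists were chosen with earlier results of these data known. The text names the 9 genes, the 12 related genes of lowest p called at 8 weeks in CAC against Con, close relatives of the 9, and the 3 most correlated genes of each. Of the genes this rule names, 2 are not reported here. The alternatives tried were 0.1 as the pseudocount, no filter, a filter at 5 TPM, median-ratio rescaling, mitochondrial genes left out, array weights, the compared groups alone, a replicate block and each library left out.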

Additional observations from a re-analysis of the deposited data

Results flagged for a closer look

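In 11 of the 108 groups formed by 9 genes and 12 conditions, 1 library lay far from the rest of its group by Dixon's test, where chance gives about 1 in 20. In CAC at 6 weeks, Myom3 of replicate 4 was 119 TPM (others 25.9 to 39.7) and Myom1 of replicate 2 was 763 TPM (others 581 to 617). In NCAC at 8 weeks, replicate 3 had 11293.4 TPM of Actn3 (others 5113.3 to 5813.6) and 4646.5 TPM of Myoz1 (others 2948.9 to 3171.8), both fast fibre genes, and replicate 5 had 591 TPM of Neb (others 496 to 520.0). Low values were Ttn in NCAC replicate 2 at 2 weeks (168 TPM, others 184 to 187), Ttn in NCAC replicate 4 at 6 weeks (155 TPM, others 197 to 213) and Actn2 in NCAC replicate 3 at 2 weeks (472 TPM, others 663 to 740.0). High values of Myom1 were 515 TPM in Con replicate 1 at 2 weeks (others 415 to 432), 542 TPM in NCAC replicate 2 at 4 weeks (others 445 to 462) and 618 TPM in Con replicate 2 at 8 weeks (others 451 to 488).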

How the results depend on the processing

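Counts of the 9 genes called moved as follows. Except for rescaling, the share of all genes called under each alternative is not set beside them here. No change in these counts is thus shown to be particular to the 9 genes. Rescaling gave 1, 2 and 3 against Con at 4, 6 and 8 weeks (3, 5 and 6 as reported) and 2 and 3 against NCAC at 6 and 8 weeks (7 and 5). Without mitochondrial genes there were 1 and 2 against Con at 6 and 8 weeks and 0, 3 and 2 against NCAC at 4, 6 and 8 weeks. The compared groups alone gave 1, 2 and 3 against Con and 0, 4 and 1 against NCAC at 4, 6 and 8 weeks. No filter gave 0 and 2 against NCAC at 4 and 8 weeks (1 and 5), and a filter at 5 TPM gave 2 at 4 weeks. Array weights gave 3 and 4 against NCAC at 4 and 6 weeks and 1 (Myom2) for the CAC difference over weeks (0 as reported). For Con over weeks (1), a pseudocount of 0.1, the 5 TPM filter and array weights gave 2, 2 and 3.

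With 1 library left out, the counts ran from 2 to 3, 2 to 5 and 5 to 7 against Con and from 0 to 4, 4 to 7 and 1 to 6 against NCAC at 4, 6 and 8 weeks, from 0 to 1 for the CAC difference over weeks and from 0 to 2 for Con over weeks. They were 0 to 0 for both CAC comparisons at 2 weeks and all of NCAC against Con. The ratio tests gave 0 too, which their smallest possible p largely fixes and which says nothing about stability.

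Replicate numbers did not pair libraries: of 60 same-numbered pairs, 16 had correlated deviations over 0.1 (median -0.002). A replicate block gave 2 calls against NCAC at 8 weeks (5); libraries 6 and 7 of CAC have no partner in it. With it Ldb3 against Con at 8 weeks was -0.18 (adjusted p = 0.164) in place of -0.35. Limma on the ratios called 4 against Con and 4 against NCAC (0 by permutation), and with a replicate block 3 and 3, losing Myoz1 over Ldb3 at 8 weeks in both (adjusted p = 0.0576 and 0.0651).

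Of the 48 single-gene results that were called in a fit of all libraries or that the text gives, 18 changed sign with rescaling. Against Con these were Ttn -0.152, Neb -0.282, Myoz1 -0.168 and Myom1 -0.12 at 6 weeks, and Ttn -0.062, Neb -0.105, Actn2 -0.147, Myoz1 -0.152 and Myom1 -0.237 at 8 weeks. Against NCAC they were Ttn -0.056, Neb -0.179, Actn2 -0.01, Myoz1 -0.169 and Myom1 -0.025 at 6 weeks, and Ttn -0.118, Actn3 -0.14, Myoz1 -0.219 and Myom1 -0.244 at 8 weeks. Over all 108 differences of the 9 genes rescaling changed 35 signs, 12 of them of called values. Without mitochondrial genes Neb was -0.118 and Myoz1 -0.004 at 6 weeks and Myom1 -0.011 at 8 weeks against Con. With 1 library left out, values near 0 changed sign: Neb against Con at 6 weeks ran from -0.021 to 0.107, and in NCAC against Con at 8 weeks Ttn ran from -0.044 to 0.114 and Ldb3 from -0.014 to 0.109. The cause of these shifts was not tested beyond the scaling that makes them. With 5 to 7 libraries a group, small differences cannot be told from 0.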
